A study of Mus musculus with 6 samples.

Results

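The renin-angiotensin system genes described here were the 9 mouse genes Agt, Ren1, Ace, Agtr1a, Agtr1b, Agtr2, Mas1, Agtrap and Atp6ap2. They were chosen by name, as all probes on the array whose gene name is one of the 9. This gave 10 probes among 55681 probes that were not controls, with 1 probe for each gene and a pair of probes for Mas1. Of the 10 probes, 8 could be tested among 28032 tested probes, and those of Agtr1b and Agtr2 could not.

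In tail-suspension a mouse hangs by its tail with the hindlimbs unloaded, which serves as a ground model of microgravity. The arrays compared cardiac muscle of 3 male C57BL/6 mice after 28 days of tail-suspension with that of 3 male C57BL/6 sham mice, which were kept in the same space without suspension. The labels name no transgene, deletion or drug for these 6 hearts, and put the start of suspension at an age of 10 weeks while giving the mice an age of 11 weeks. Total RNA of each heart was labelled in 1 colour and hybridised to its own array. The study asked whether angiotensin-II signalling takes part in the loss of heart muscle, and the comparison here is of the messages of that system in RNA of the tissue as a whole.

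Angiotensinogen (Agt) is the precursor protein of the system. Renin cuts it to angiotensin-I, and angiotensin-converting enzyme (Ace) trims this to angiotensin-II, which acts through the type 1 receptors (Agtr1a and Agtr1b in mice) and the type 2 receptor (Agtr2). A counteracting branch forms angiotensin-(1-7), for which Mas1 is a receptor. Agtrap binds the type 1 receptor and promotes its internalisation, and Atp6ap2, the prorenin receptor, is also an accessory subunit of the vacuolar proton pump. Most circulating angiotensinogen comes from the liver and most circulating renin from the kidney, but the heart also carries messages of the system.

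Each probe is a run of 60 bases, and its identity decides what its signal can stand for. The probes of angiotensinogen and renin are shown because they read the substrate and the enzyme that starts the pathway. The Agt probe lay on mm9 chr8:127083142-127083201, minus strand, and the Ren1 probe on chr1:135250782-135250841, plus strand. Sequences are given 5′ to 3′ as the files hold them.

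Agt: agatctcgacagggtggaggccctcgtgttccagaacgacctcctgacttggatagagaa

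Ren1: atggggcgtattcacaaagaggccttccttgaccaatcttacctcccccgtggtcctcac

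The probes of the type 1 receptor paralogs are shown, by their first 30 bases, because a shared stretch would mix their signals. The Agtr1a probe lay on chr13:30474638-30474697, plus strand, and the Agtr1b probe on chr3:20213539-20213598, minus strand. The longest run that these probes shared over their whole length was 6 bases.

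Agtr1a: tcctccacatatatgtacatatgtatctct

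Agtr1b: ccaggtaactgtgtcttcatagttggacca

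The Mas1 probes are shown because they overlap and gave different results. Probe 1 lay on chr17:13033943-13034002 and probe 2 on chr17:13033918-13033977, both on the minus strand, so probe 2 lay nearer the 3′ end of the message. They shared a run of 35 bases, and each held 25 bases of its own. The first 30 bases of the shared run are printed, with the hexamer AATAAA, the commonest polyadenylation signal, in capitals. In a message this hexamer stands a short way before the end at which the poly(A) tail is added. The hexamer was followed by 15 bases of probe 1 and by 40 bases of probe 2. No other pair of the probes for these genes shared a run of more than 8 bases.

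Mas1 shared run: cattgtcaaagttcAATAAAtatccatctc

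The other probes lay on chr11:105850398-105850457 (plus strand) for Ace, chrX:21065564-21065623 (plus strand) for Agtr2, chr4:147454431-147454490 (minus strand) for Agtrap and chrX:12193624-12193683 (plus strand) for Atp6ap2. Each probe was printed as 1 spot per array, so its value on an array rests on a single spot.

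Brightness is given as the processed intensity, which is the background-corrected brightness of a spot. The level is the log2 of this intensity minus the log2 of the 75th percentile of the array, and this scaling matters because the percentile was 302 to 322 on the sham arrays and 341 to 376 on the tail-suspension arrays. A change is the mean level of the 3 tail-suspended hearts minus that of the 3 sham hearts. A probe was tested with limma when it was well above background on all arrays of at least 1 group, and a call means an adjusted p under 0.05 (Benjamini-Hochberg over all tested probes). The share of probes well above background was between 50.9% and 53.4%, no spot was saturated, and all arrays lay on 1 slide. Precision was limited by the number of arrays, and the smallest two-sided p that exact permutation of 6 arrays allows is 0.1. Row 1 held the 3 sham hearts with the first tail-suspended heart, and row 2 held the remaining hearts. Since row 2 held no sham heart, a fit with the row as a block compares only the first tail-suspended heart with the 3 sham hearts. A call lost in that fit thus cannot separate an effect of the row from the loss of hearts. All 7 cardiomyocyte marker genes (Myh6, Actn2, Tnnt2, Tnni3, Ryr2, Myl2 and Pln) were tested, and none of them was called at its brightest probe, while Myh6 was lower at another probe (change -1.47, limma adjusted p = 0.00957).

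Of the 8 tested probes, 1 was called higher (Agt) and 1 lower (Mas1 probe 1) in tail-suspended hearts. Over all tested probes, 20.4% were called (10.8% higher and 9.57% lower), so the share among these genes was close to that of the whole array. The groups did not overlap for 3 of the 8 probes (Agt, Agtr1a and Mas1 probe 1), against 44.0% of all tested probes. The median change over all tested probes was -0.0049.

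**Figure D1:**
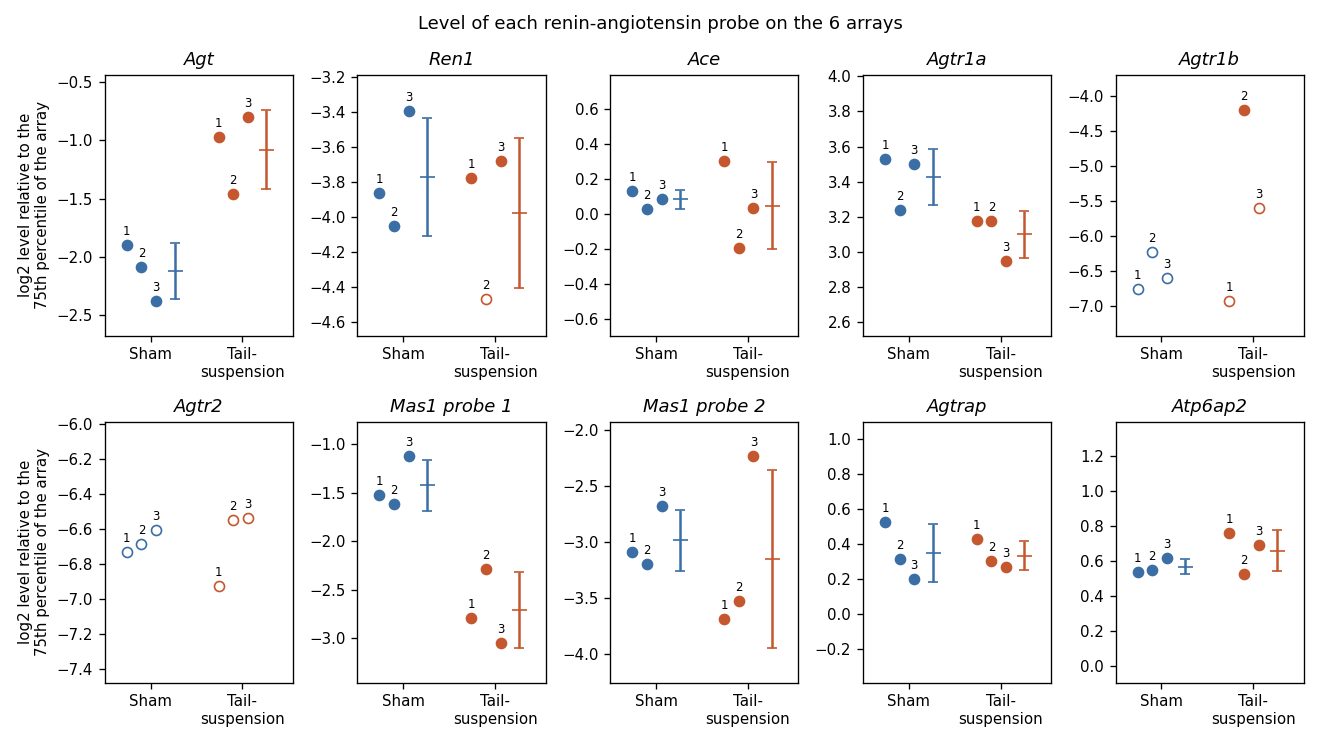
Each panel plots the log2 level of 1 probe (y axis, relative to the 75th percentile of the array) on the 3 sham (blue) and 3 tail-suspension (orange) arrays, with the replicate number beside each point, open points where the probe was not well above background, and bars for the mean and SD (n = 3) of tested probes. The 3 tail-suspended hearts lie above all sham hearts for Agt and below them for Agtr1a and Mas1 probe 1, the points overlap elsewhere, and the y axes differ between panels.

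Angiotensinogen was higher in tail-suspended hearts. The processed intensity of Agt was 86.6, 75.1 and 58.0 in the sham hearts and 174, 137 and 215 in the tail-suspended hearts. Every tail-suspended heart was above every sham heart, and the lowest of them was the second. On the log2 scale the sham hearts had a level of -2.12 ± 0.24 (SD, n = 3) and the tail-suspended hearts one of -1.08 ± 0.34 (SD, n = 3). Agt was therefore 2.06-fold higher, a change of 1.04 on the log2 scale (SE 0.20, 95% interval 0.56 to 1.52, limma adjusted p = 0.0189). After normexp background correction the change was 0.56 (limma adjusted p = 0.0171). Of all tested genes, 4.92% had a larger absolute change. Within row 1 of the slide, which is also what the fit with the row as a block compares, the change was 1.15. In that fit, of 1 tail-suspended against 3 sham hearts, Agt was not called. Without sham replicate 2 the change was 1.06 (limma adjusted p = 0.0663), without tail-suspension replicate 1 it was 0.99 (limma adjusted p = 0.0564) and without tail-suspension replicate 3 it was 0.90 (limma adjusted p = 0.0586).

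In whole tissue, fewer cells of a type and less RNA per cell cannot be told apart, and marker levels of cells that may carry a gene are given after that gene. Hepatocytes and adipocytes are known sources of angiotensinogen. Of 5 hepatocyte markers, the defining genes Alb, Apoa1 and Apoh were not well above background on any array. Ttr, the gene of transthyretin, was higher (change 2.64, SE 0.37, limma adjusted p = 0.00794), and Serpina1a differed by 0.12 and was not called. Ttr was dim in the sham hearts (processed intensity 20.5, 19.9 and 10.9), of which 2 were well above background. It passed the filter through the tail-suspended hearts alone (138, 71.8 and 170), so the size of its change is uncertain. The summed level of the 5 markers was -2.34 to -1.26 in sham and -1.56 to -0.10 in tail-suspended hearts. Of 6 adipocyte markers, Lep was not well above background on any array, and only Cfd, the gene of adipsin, could be tested (change 2.90, SE 1.29, limma adjusted p = 0.149). Their summed level was -3.52 to -1.29 in sham and -1.92 to 1.47 in tail-suspended hearts. The part of these cells in the Agt result was not tested.

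Renin was close to the limit of detection. The processed intensity of Ren1 was 22.1, 19.3 and 28.6 in the sham hearts and 24.8, 17.0 and 29.3 in the tail-suspended hearts. The groups overlapped, and the spot of the second tail-suspended heart was not well above background. The lowest intensity that counted as well above background was between 14.0 and 19.5 on the 6 arrays. The change was -0.21 (SE 0.26, 95% interval -0.82 to 0.40, limma adjusted p = 0.587). A probe for the duplicated renin gene Ren2, which C57BL/6 mice are known to lack, was well above background in all 3 sham hearts and in 1 tail-suspended heart (change -0.49, SE 0.16, limma adjusted p = 0.0746). Of 4 kidney markers, Umod, Slc12a1 and Kap were not well above background on any array, and Slc34a1 was on 3 of the 6. Their summed level was -4.06 to -3.18 in sham and -3.89 to -2.69 in tail-suspended hearts, and none could be tested.

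Angiotensin-converting enzyme was detected on all 6 arrays and was not called. The processed intensity of Ace was 353, 326 and 321 in the sham hearts and 420, 329 and 385 in the tail-suspended hearts. The groups overlapped, and the second tail-suspended heart had the lowest scaled level of the 6. Sham hearts had a log2 level of 0.08 ± 0.05 (SD, n = 3), and tail-suspended hearts had one of 0.05 ± 0.25 (SD, n = 3). The change of -0.04 had a 95% interval of -0.36 to 0.29 (SE 0.14, limma adjusted p = 0.867).

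The type 1 receptor Agtr1a, the receptor that losartan blocks, was lower in each tail-suspended heart but did not pass the threshold. Its processed intensity was 3724, 3020 and 3416 in the sham hearts and 3082, 3395 and 2892 in the tail-suspended hearts. On the scaled level the groups did not overlap, with sham levels of 3.53, 3.24 and 3.50 and tail-suspension levels of 3.18, 3.17 and 2.95. The change was -0.33 (SE 0.12, 95% interval -0.61 to -0.04, limma adjusted p = 0.0971).

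The other angiotensin-II receptors were near background. The processed intensity of Agtr1b was 3.00, 4.28 and 3.12 in the sham hearts and 2.81, 20.6 and 7.76 in the tail-suspended hearts. Only the second tail-suspended heart was well above background, so Agtr1b was not tested. For the type 2 receptor Agtr2 the processed intensity was 3.03, 3.11 and 3.10 in the sham hearts and 2.80, 4.02 and 4.04 in the tail-suspended hearts. Its spot was not well above background on any array.

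Mas1 was lower at probe 1 in tail-suspended hearts. The processed intensity of probe 1 was 112, 104 and 138 in the sham hearts and 49.2, 77.0 and 45.3 in the tail-suspended hearts. Every tail-suspended heart was below every sham heart. Its log2 level averaged -1.43 ± 0.26 (SD, n = 3) over the sham hearts and -2.71 ± 0.39 (SD, n = 3) over the others. Probe 1 was therefore 2.44-fold lower, a change of -1.29 (SE 0.22, 95% interval -1.82 to -0.75, limma adjusted p = 0.0138). After normexp background correction the change was -0.79 (limma adjusted p = 0.00381). Within row 1 of the slide, and so with the row as a block, the change was -1.37. In that fit, of 1 tail-suspended against 3 sham hearts, probe 1 was not called.

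Mas1 probe 2, which shares the printed run with probe 1, was not called. Its processed intensity was 37.8, 34.8 and 47.1 in the sham hearts and 26.4, 32.6 and 79.5 in the tail-suspended hearts. The first and second tail-suspended hearts lay below all sham hearts, and the third was the highest of the 6. The change was -0.16 (SE 0.38, 95% interval -1.08 to 0.75, limma adjusted p = 0.783), and it was -0.62 without tail-suspension replicate 3 (limma adjusted p = 0.0909). The third tail-suspended heart thus held the lowest level of the 6 at probe 1 (-3.05) and the highest at probe 2 (-2.24). The difference between the probes was not tested.

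The marker genes of endothelial cells, which are known to carry receptors of the system, also moved. Of 5 endothelial markers, 3 were lower (Kdr by -0.55, Emcn by -0.50 and Tie1 by -0.43, limma adjusted p = 0.0159, 0.0406 and 0.0476), against 10.5% of all tested genes. Cdh5 (change -0.30, limma adjusted p = 0.159), Pecam1 (change 0.19, limma adjusted p = 0.291) and the other probe of Kdr (change -0.25, limma adjusted p = 0.0739) were not called. The summed level of the 5 was 5.30 to 5.41 in sham and 4.87 to 5.02 in tail-suspended hearts, which did not overlap. The largest part of that sum was Kdr (mean level 4.25 in sham and 3.70 in tail-suspended hearts), followed by Cdh5 (3.48 and 3.18). Of 6 mural cell markers, which were all tested, Kcnj8 was lower (change -0.56, limma adjusted p = 0.0234) and the other 5 were not called. Their summed level was 6.13 to 6.50 in sham and 6.24 to 6.62 in tail-suspended hearts. Of 5 fibroblast markers, Col3a1 was lower (change -1.88, limma adjusted p = 0.0177) and the other 4 were not called, with changes of -0.95 for Col1a1, -0.64 for Lum, 0.19 for Pdgfra and 0.34 for Dcn. Their summed level was 7.91 to 8.02 in sham and 8.02 to 8.29 in tail-suspended hearts. Most of that sum was Dcn (mean level 7.74 in sham and 8.08 in tail-suspended hearts), so it says little of the other 4. The part of these cells in the Mas1 and Agtr1a results was not tested.

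The receptor-associated protein gene Agtrap had a processed intensity of 464, 397 and 347 in the sham hearts and 458, 465 and 452 in the tail-suspended hearts. Its levels overlapped, and the change of -0.01 had a 95% interval of -0.28 to 0.25 (SE 0.11, limma adjusted p = 0.941). The processed intensity of the prorenin receptor gene Atp6ap2 was 468, 467 and 463 in the sham hearts and 577, 543 and 606 in the tail-suspended hearts. After scaling, the second tail-suspended heart lay below all sham hearts and the others above, so that the groups overlapped. The change was 0.09 (SE 0.09, 95% interval -0.13 to 0.32, limma adjusted p = 0.509).

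**Figure D2:**
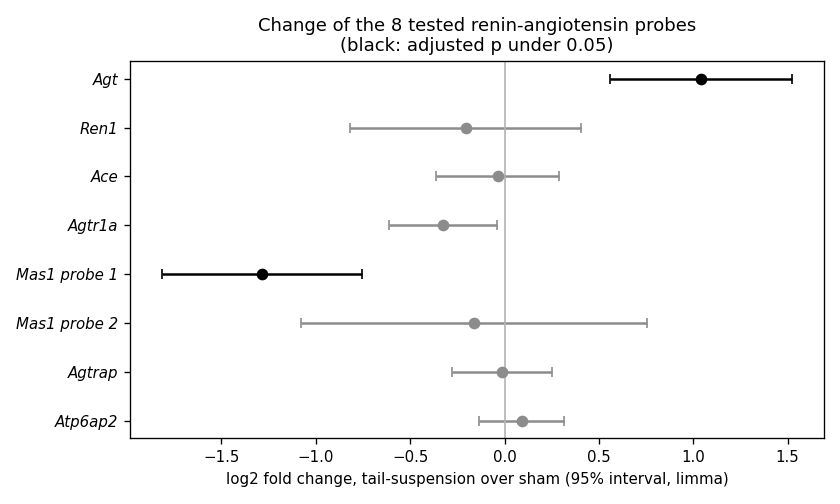
The x axis gives the log2 fold change of tail-suspended over sham hearts for the 8 tested probes (y axis), with the limma 95% interval (3 arrays a group), in black where the adjusted p was under 0.05. Agt lies at 1.04 and Mas1 probe 1 at -1.29, and the other 6 probes lie between -0.33 and 0.09.

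The calls for Agt and Mas1 probe 1 were read again under 20 other settings of the processing and the fit. The change of Agt was above 0 in all 20 (0.56 to 1.23) and was called in 14. The change of Mas1 probe 1 was below 0 in all 20 (-1.50 to -0.79) and was called in 18. The change of Mas1 probe 2 ran from -0.70 to 0.11 and was called in none.

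**Figure D3:**
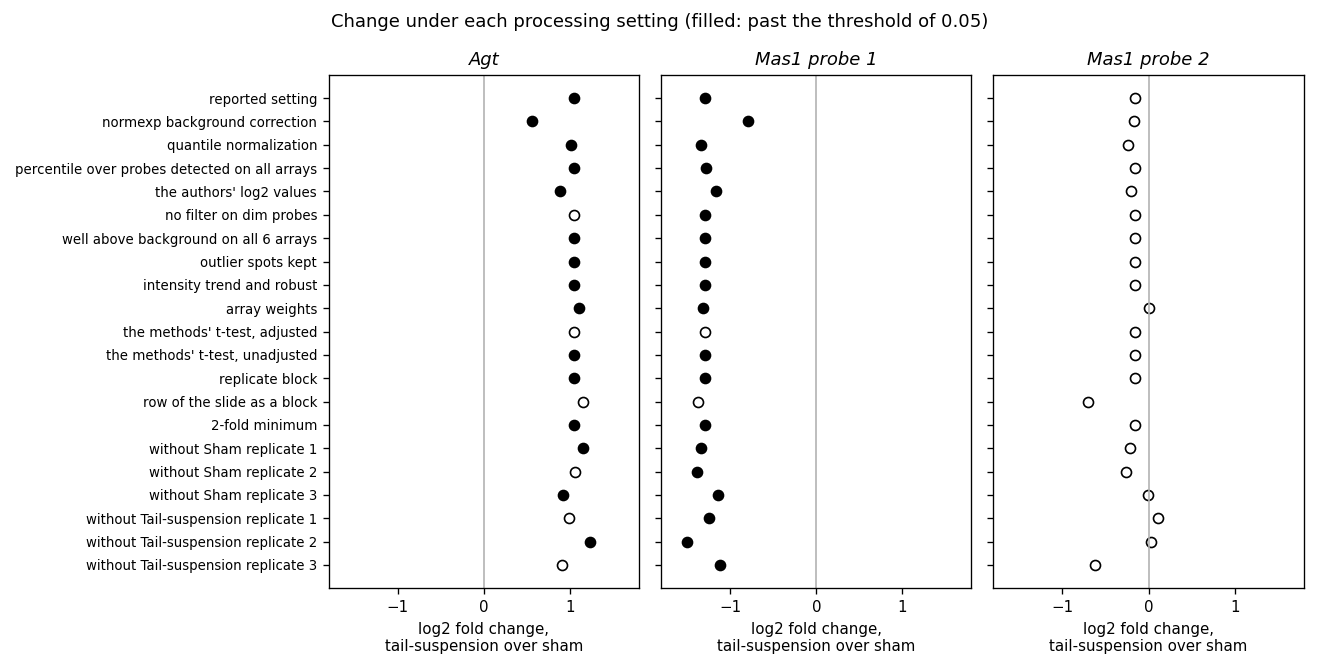
The x axis of each panel gives the log2 fold change of tail-suspended over sham hearts for Agt, Mas1 probe 1 and Mas1 probe 2 under the reported setting and 20 others (y axis), filled where the p was under 0.05. Agt stays on the right of 0 and Mas1 probe 1 on the left, whereas Mas1 probe 2 lies on both sides and is never filled.

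The genes around the system were read from 6 lists with 76 genes, of which 61 could be tested at their brightest tested probe. Of these, 4 were called higher and 4 lower. Over all 17140 tested genes, 21.2% were called. Of the tested genes, 10.6% were called higher and 10.5% lower, and the median change was -0.01. When the fit took the row as a block, 2 of the listed genes were called higher (Scnn1a and Ctgf) and 0 lower.

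Peptidases that form or break down angiotensins were mostly not called. Of 16 genes, 14 were tested, with a median change of -0.23, and 1 was lower and 0 higher. The gene that fell was Enpep, aminopeptidase A, which converts angiotensin-II to angiotensin-III. Its processed intensity was 115, 108 and 125 in the sham hearts and 57.7, 59.3 and 74.0 in the tail-suspended hearts. The groups lay apart, with a change of -1.08 (SE 0.13, limma adjusted p = 0.00458), a change of -1.12 with the row as a block (limma adjusted p = 0.0582) and one of -0.71 after normexp background correction. Neprilysin (Mme), which forms angiotensin-(1-7) from angiotensin-I, differed by -0.39 at its brightest probe (SE 0.13, limma adjusted p = 0.0730) and was lower at its other probe (change -0.64, SE 0.11, limma adjusted p = 0.0150). Without sham replicate 3 the brightest Mme probe was called as well (change -0.51, limma adjusted p = 0.0277). The chymase Cma1 and cathepsin G (Ctsg), which can form angiotensin-II without Ace, were well above background on 2 arrays each and were not tested. Some peptidases of this list are mast cell genes, and of 6 mast cell markers, 4 were tested. Cma1, Cpa3 and Mcpt4 are in both lists, so these markers are not separate from the peptidases. Kit was lower (change -1.99, SE 0.27, limma adjusted p = 0.00724), against 10.5% of all tested genes. Mcpt4 (change -0.85, limma adjusted p = 0.185), Cpa3 (change -0.45, limma adjusted p = 0.566) and Tpsb2 (change -0.23, limma adjusted p = 0.302) were not called. Cpa3 passed the filter through the sham hearts alone. The summed level of the mast cell markers was 0.34 to 0.82 in sham and -0.73 to 0.29 in tail-suspended hearts, and the part of these cells was not tested.

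Among genes that carry or stop the signal of the type 1 receptor, 15 of 16 were tested, with a median change of 0.07, and 1 was higher and 1 lower. Grk5, a kinase that phosphorylates activated receptors, rose from a processed intensity of 471, 503 and 529 in the sham hearts to 834, 1075 and 1190 in the tail-suspended hearts. The groups did not overlap, and the change was 0.82 (SE 0.13, limma adjusted p = 0.0102), or 0.62 with the row as a block (limma adjusted p = 0.118). Rgs4, a regulator that shuts off G proteins, fell from 474, 576 and 527 to 243, 446 and 257. Its change was -1.0 (SE 0.22, limma adjusted p = 0.0274), and its other probe was lower as well (change -0.87, limma adjusted p = 0.0130). The call at the brighter Rgs4 probe was lost when any array but tail-suspension replicate 2 was left out (change -1.25 to -0.86 over the 6 fits, limma adjusted p up to 0.0948). Rgs2, a regulator of the same family, had a processed intensity of 8273, 7615 and 8353 in the sham hearts and of 11110, 29201 and 27123 in the tail-suspended hearts. It did not pass the threshold (change 1.14, SE 0.32, limma adjusted p = 0.0504), and without tail-suspension replicate 1 it did (change 1.54, limma adjusted p = 0.00788). With the row as a block its change was 0.34 (limma adjusted p = 0.247). Mrgprd, another receptor for angiotensin peptides, was not well above background on any array. Prkca was lower at a probe other than its brightest (change -0.64, limma adjusted p = 0.00643), and its brightest probe was not called (change -0.40, limma adjusted p = 0.0644). Plcb1 was lower at 1 of its 3 tested probes (change -0.38, limma adjusted p = 0.0402). Its brightest probe (change -0.03, limma adjusted p = 0.902) and its remaining probe (change -0.17, limma adjusted p = 0.473) were not called.

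The aldosterone branch was only partly detected. Of 9 genes, 4 were tested, and 1 was higher. Scnn1a, the alpha subunit of the epithelial sodium channel, had a processed intensity of 32.0, 32.0 and 31.2 in the sham hearts and of 70.3, 62.7 and 67.4 in the tail-suspended hearts. The groups lay apart, with a change of 0.86 (SE 0.10, limma adjusted p = 0.00498), which was 0.21 and not called after normexp background correction (limma adjusted p = 0.211). The mineralocorticoid receptor Nr3c2 differed by -0.16 (SE 0.12, limma adjusted p = 0.379). Sgk1, a kinase that this receptor induces, differed by 0.49 (SE 0.17, limma adjusted p = 0.0836) and was called in 3 of 20 other settings. These were normexp background correction (change 0.57, limma adjusted p = 0.0359), array weights (change 0.62, limma adjusted p = 0.0197) and the fit without tail-suspension replicate 2 (change 0.64, limma adjusted p = 0.0384). The aldosterone synthase gene Cyp11b2, Cyp11b1, Hsd11b2, Scnn1b and Scnn1g were not well above background on any array.

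None of the 6 genes of the kinin branch, whose peptides Ace inactivates, could be tested. The bradykinin receptors Bdkrb1 and Bdkrb2, the kininogens Kng1 and Kng2 and the kininase gene Cpn1 were not well above background on any array.

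Among genes known to respond to angiotensin-II, 12 of 13 were tested, with a median change of 0.14. Of these 12, 1 was called higher and 2 lower, near the shares of all tested genes (10.6% and 10.5%). Ctgf, a matricellular growth factor of fibrosis, had a processed intensity of 4687, 4329 and 4284 in the sham hearts and of 29691, 26820 and 34481 in the tail-suspended hearts. The groups lay far apart, with a change of 2.56 (SE 0.12, limma adjusted p = 0.000651), and Ctgf was called in all 20 other settings. The immediate early gene Egr1 differed by -0.82 (SE 0.17, limma adjusted p = 0.0222) and the chemokine gene Ccl2 by -0.93 (SE 0.17, limma adjusted p = 0.0152). The call for Egr1 was lost without any 1 of the sham arrays or without tail-suspension replicate 3 (change -0.87 to -0.67, limma adjusted p 0.0512 to 0.0813). The call for Ccl2 was lost without sham replicate 2 (change -0.91, limma adjusted p = 0.0600). With the row as a block the changes were -0.50 for Egr1 (limma adjusted p = 0.200) and -0.75 for Ccl2 (limma adjusted p = 0.161). Atrial natriuretic peptide (Nppa) differed by 1.45 (SE 0.51, limma adjusted p = 0.0886), with overlapping groups. The other genes of this list that were not called ran from -0.90 for Acta1 to 1.34 for Atf3. Nppa is also an atrial marker. Of the other atrial markers, Myl4 was not called (change -0.63, limma adjusted p = 0.217). Myl7 and Sln were well above background on 2 arrays each and were not tested. The part of atrial tissue in the Nppa value was not tested. Markers of inflammatory cells were read as well. Of 4 tested neutrophil markers, S100a8 (change 4.80, limma adjusted p = 0.00705) and S100a9 (change 4.62, limma adjusted p = 0.00661) were higher, against 10.6% of all tested genes. The other 2 were not called. The summed level of the 5 listed neutrophil markers was 7.16 to 7.42 in sham and 7.69 to 7.87 in tail-suspended hearts. Most of that sum was Csf3r (mean level 7.31 in sham and 7.60 in tail-suspended hearts). Csf3r itself was not called (change 0.30, limma adjusted p = 0.0926). Of 5 tested macrophage markers, only Cd163 was called higher, against the same 10.6% of all tested genes, and the other 4 were not called. Cd163 was not well above background in any sham heart (processed intensity 14.2, 3.79 and 10.6). It passed the filter through the tail-suspended hearts alone (68.1, 35.1 and 87.4). Its change is thus only a bound, of at least 3.39-fold. The summed level of the 6 listed was 4.53 to 4.92 in sham and 4.61 to 5.24 in tail-suspended hearts. Most of that sum was Csf1r (mean level 4.40 in sham and 4.53 in tail-suspended hearts). None of the 4 tested erythroid markers was called. Their changes were -1.50 for Hba-a1, -1.54 for Hbb-b1, -1.62 for Alas2 and -0.19 for Slc4a1 (limma adjusted p = 0.0506, 0.0536, 0.0619 and 0.675). The summed level of the 5 listed was 8.74 to 9.43 in sham and 6.73 to 8.43 in tail-suspended hearts. The part of these cells, and of the fibroblasts described above, in the results for this list was not tested.

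The vacuolar proton pump, whose accessory subunit Atp6ap2 is, was tested at all 16 of its listed subunits. The median change was -0.03, and Atp6v0e2 was higher (change 0.32, SE 0.09, limma adjusted p = 0.0465), a call that was lost without any 1 of the 6 arrays (limma adjusted p 0.0810 to 0.138). Atp6v1a was lower at a probe other than its brightest (change -0.45, SE 0.10, limma adjusted p = 0.0247).

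**Figure D4:**
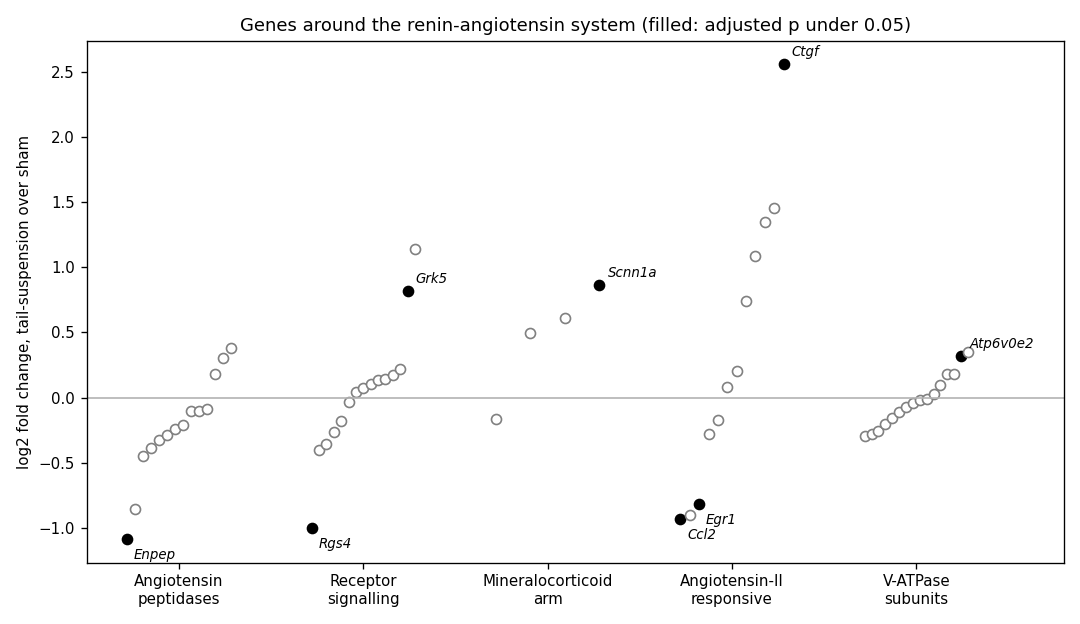
The y axis gives the log2 fold change of tail-suspended over sham hearts for the tested genes of 5 lists around the renin-angiotensin system (x axis), 1 point per gene at its brightest tested probe, filled and named where the limma adjusted p was under 0.05. Of the 61 points, 4 are filled above 0 and 4 below, with Ctgf the highest at 2.56.

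Apelin and its receptor, a peptide system known to counteract angiotensin-II, fell further than any of the renin-angiotensin probes, with changes of -3.70 for Apln (SE 0.35, limma adjusted p = 0.00282) and -4.64 for Aplnr (SE 0.40, limma adjusted p = 0.00235). Aplnr was dim in the tail-suspended hearts (processed intensity 24.1, 62.4 and 20.3). After normexp background correction the changes were smaller, at -2.97 for Apln and -3.13 for Aplnr.

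The genes whose levels were most like those of Mas1 probe 1 over the 6 arrays were Nsun3, Sardh, Gpr124, Sema6a and Sirt4, with a Pearson r of at least 0.994 among 17140 genes. The 6 arrays fall into the 2 groups, so the difference between the groups enters this r, which is given as a description of these arrays. Their own changes lay between -0.85 for Sema6a and -0.23 for Sirt4.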

How the data were processed

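Spot values came from Agilent Feature Extraction 10.7.1.1, run by the authors on their scans (per the submitters' processing notes). The deposited processed intensity is the brightness of a spot after background correction. The deposited log2 values had nearly the same distribution on every array, as quantile normalization gives, and were used as an alternative. Here the log2 processed intensity was taken minus the log2 of the 75th percentile of each array (between 302 and 376 in intensity) over all 59305 spots that were not controls. Between 146 and 212 outlier spots per array were left out, and spots of a probe were averaged. Groups were compared with limma 3.58.1 in R 4.3.3 (lmFit and eBayes, no covariates, 6 arrays, threshold 0.05). The limma fit and its adjustment, but not the scaling, the averaging or the filter, were tested on simulated levels. Coordinates are those of the files (mm9).

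The genes and lists were chosen with earlier results of these data known. Named are all probes of the 9 genes, in each list up to 4 genes with the largest change among those called, plus Mme, Nr3c2, Hsd11b2, Sgk1, Bdkrb2 and Rgs2, and Apln, Aplnr and the 5 genes most like Mas1 probe 1. Others were named after their values were seen. An item of the naming rule is not reported here. The design text gives 3 mice per group. The labels' age of 11 weeks and start at 10 weeks cannot both hold with 28 days of suspension. The alternatives are given with their effect in the closing section.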

Additional observations from a re-analysis of the deposited data

How the results depend on the processing

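Agtr1a and Atp6ap2 kept their direction and were called in none of the 20 alternatives. Ren1 turned to 0.040 with array weights, Ace to 0.048 with array weights and 0.22 with the row as a block, Mas1 probe 2 to 0.0035 with array weights, and Agtrap to 0.080 with the row as a block. With 1 array left out, Ren1 ran from -0.35 to 0.040 and Ace from -0.16 to 0.085 (both above 0 only without tail-suspension replicate 2), Mas1 probe 2 from -0.62 to 0.11 (above 0 without tail-suspension replicate 1 or 2), and Agtrap from -0.086 to 0.077 (above 0 without sham replicate 1 or tail-suspension replicate 2 or 3). None of these was called under any setting. The call of Agt was lost without a filter (limma adjusted p = 0.0614), by the methods' t-test once adjusted (0.0731), with the row as a block and without 3 of the arrays. Mas1 probe 1 was not called by that test (0.0635) or with the row as a block. After normexp background correction Agt (0.56), Mas1 probe 1 (-0.79) and Enpep (-0.71) were called with smaller changes than reported. The causes were not tested.

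Counts of called probes (3023 higher, 2683 lower) were 1041 and 790 without a filter, 1532 and 1248 by the adjusted methods' t-test, 4810 and 4696 unadjusted, 1714 and 1403 with the replicate block, 320 and 177 with the row as a block, 757 and 460 with a 2-fold minimum, 4355 lower with array weights, and 1008 to 2885 higher and 749 to 2701 lower with 1 array left out. Of the renin-angiotensin probes, the higher call fell to 0 without a filter, by the adjusted t-test and with the row as a block (0 to 1 with 1 array left out), and the lower call to 0 by the adjusted t-test and with the row as a block (1 with any array left out). The listed genes (4 higher, 4 lower) became 8 and 7 with an intensity trend, 11 and 8 with array weights, 9 and 11 by the t-test before adjustment, 2 and 0 with the row as a block, 1 and 2 with a 2-fold minimum, 1 lower without a filter or by the adjusted t-test, and 3 to 7 higher and 1 to 4 lower with 1 array left out. Arrays with the same replicate number did not deviate together (correlations -0.02, -0.02 and 0.05). With the replicate block, Agt and Mas1 probe 1 were called (limma adjusted p = 0.0452 and 0.0454). A block for the slide was not run, since there was 1 slide.

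A dim probe gives only a bound, which limits Agtr1b, Agtr2, Ren1, Cd163 and the kinin branch. Dim sham spots also leave the sizes of the Ttr and Cfd changes uncertain.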
